A study of Mus musculus with 5 samples.

Results

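Peroxisomes are the organelles in which mouse cells shorten very long and branched fatty acids, start the synthesis of ether lipids and break down hydrogen peroxide. The genes described here are 36 genes of that organelle: enzymes and transporters of its lipid oxidation, the ether lipid enzymes, catalase, and the peroxins that build it. They were chosen by their known peroxisomal role around Acot8, a peroxisomal acyl-CoA thioesterase that was itself selected on its measured difference between the 2 groups of mice below. A named probe was found for 34 of the 36, with 38 probes among the 26423 on the array. Phyh (phytanoyl-CoA hydroxylase) and Scp2 (the sterol carrier protein with a thiolase form) had no named probe and are not analysed here.

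The samples were striatum from male FVB mice aged 12 months, 3 in the group called HD_miR196a and 2 in the group called HD. All 5 carried the same transgene modelling Huntington's disease (HD), in which GFP is joined to human HTT exon 1 (84 CAG repeats) and driven by the human ubiquitin promoter. The labels describe motor function as improved in the HD_miR196a mice and weak in the HD mice. The 3 HD_miR196a mice also carried a miR-196a precursor under a human ubiquitin promoter, from a cross with miR-196a mice. Both transgenes thus use a promoter active in most cell types, the HD transgene encodes only a fragment of HTT, and mice lacking it were not analysed here. RNA was labelled with Cy5 and hybridised to a single-colour array, and each mouse has 1 value per probe that combines 2 technical repeats.

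In textbook terms, peroxins bring in matrix enzymes from the cytosol. PEX5 carries most of them and PEX7 a few, both dock at PEX13 and PEX14, and a ring of ubiquitin ligases with an ATPase returns PEX5 to the cytosol. Inside, acyl-CoA oxidases, bifunctional proteins and thiolases shorten the acyl chain, and thioesterases such as ACOT8 and the carnitine acyltransferases release the products. Ether lipids made from peroxisomal precursors are abundant in brain, above all in myelin, and inherited loss of peroxisomes damages white matter.

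Of the sequences, 3 are shown. The first is the mature mouse miR-196a-5p of RefSeq, because its precursor is what the groups differ in, with the seed (bases 2 to 8) in capitals. The others are the promoters of Acot8 and Crot, the 2 genes here whose probes read near the bottom of the scale in some mice and not in others. Each promoter runs from 250 bases before to 50 bases after the gene's start, read along the gene's own strand (GRCm38.p6, from RefSeq). Acot8 lies at chr2:164804832-164805131 on the minus strand and Crot at chr5:8997097-8997396 on the minus strand. Capitals in both mark CCAAT and CCGGAAG on either strand.

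miR-196a-5p: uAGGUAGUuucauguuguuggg
Acot8 promoter: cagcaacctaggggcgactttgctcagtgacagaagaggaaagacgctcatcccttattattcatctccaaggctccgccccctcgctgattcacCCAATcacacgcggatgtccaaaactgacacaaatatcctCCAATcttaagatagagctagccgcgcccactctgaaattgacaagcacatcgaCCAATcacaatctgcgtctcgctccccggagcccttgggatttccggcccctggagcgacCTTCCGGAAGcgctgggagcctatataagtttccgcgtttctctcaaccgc
Crot promoter: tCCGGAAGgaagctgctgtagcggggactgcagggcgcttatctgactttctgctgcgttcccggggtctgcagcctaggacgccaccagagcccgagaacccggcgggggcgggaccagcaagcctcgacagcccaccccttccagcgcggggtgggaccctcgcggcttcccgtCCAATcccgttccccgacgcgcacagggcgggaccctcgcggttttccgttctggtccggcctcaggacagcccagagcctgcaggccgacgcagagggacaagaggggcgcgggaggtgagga

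The Acot8 window holds 3 CCAAT motifs and 2 CCGGAAG motifs, which overlap on opposite strands at the start of the gene. The Crot window holds 1 of each. Windows were found for 29 of the 36 genes, 36 windows in all, and none for Crat, Abcd2, Hsd17b4, Amacr, Pex2, Pex19 and Pxmp2. CCAAT, bound by the factor NF-Y, was in 52.8% of these windows and in 37.4% of all 32851 RefSeq promoters. CCGGAAG, a motif of ETS factors, was in 16.7% and 8.86%. AGGTCA, the motif of nuclear receptors, was in 22.2% and 16.3%. The response element of the PPAR receptors was searched only as an exact pair of AGGTCA in one direction with 1 base between. That pair was in 0 of these windows and 0.04% of all promoters. With so rare a pair, 0 of 36 windows does not show that these genes lack such an element. Both strands were searched, and a match is a description of the letters only.

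The Acot8 probe was bright in both HD mice and near the bottom of the scale in all HD_miR196a mice. Its deposited intensity was 10.5, 5.49 and 5.45 in HD_miR196a mice 1 to 3, against 1012 and 829.9 in HD mice 1 and 2. After quantile normalization it measured 3.49, 2.49 and 2.46 on the log2 scale in the HD_miR196a mice, against 9.85 and 9.56 in the HD mice. The groups did not overlap and lay 6.07 apart at their nearest mice. The means were 2.81 ± 0.59 (SD, n = 3) and 9.71 ± 0.20 (SD, n = 2), a difference of -6.90. These values are what singled the gene out, so they are given without a test.

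The low readings say little beyond "dim". Olfactory receptor genes, little expressed outside the nose, served as a measure of background, and their probes had a median of 5.02 on the log2 scale (543 probes), above every HD_miR196a value of Acot8. With that median in place of the HD_miR196a values, the Acot8 reading was 25.6-fold lower in HD_miR196a mice. A higher background value, such as the 95th percentile of these probes (8.31), would give a smaller bound. The array holds 1 probe named for Acot8, so no second probe bears on the reading. Only 3 of all 26423 probes had every HD_miR196a mouse more than 4 below both HD mice on the log2 scale, and 0 had every one more than 4 above. The other 2, found after their values were seen, are Lats2, a Hippo pathway kinase, and Dapp1, a signalling adaptor. This makes Acot8 one of few genes with such a reading, a fact that its selection already used.

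The genes next to Acot8 on its chromosome did not show that gap. Zswim3 starts 233 bases from Acot8 on the opposite strand, so both starts lie within the printed window. Zswim3 measured 9.45, 9.46 and 9.64 in HD_miR196a mice, against 9.68 and 9.61 in HD mice, and its groups overlapped. The difference was -0.12 ± 0.11 (SE), with a 95% interval from -0.40 to 0.15. Snx21, the sorting nexin gene on the other side, measured 9.36, 9.37 and 9.45 against 9.56 and 9.41, a difference of -0.09 ± 0.10. Of the 10 nearest genes, 5 on each side, 9 had a probe, with a median difference of 0.01. Those with the smallest p were Neurl2 (-0.42 ± 0.12), the lysosomal protease gene Ctsa (0.24 ± 0.11) and Zswim1 (-0.17 ± 0.11). None passed the threshold (limma adjusted p = 0.979 for each). Groups were apart and lower in HD_miR196a mice for Neurl2 and Zswim1, 2 of the 9 (background 10.7% of genes). They were apart and higher for Ctsa and Tnnc2, also 2 of the 9 (background 10%). Means of 5 of the 9, Neurl2 and Ctsa among them, lay under the 95th percentile of olfactory receptor probes.

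**Figure D1:**
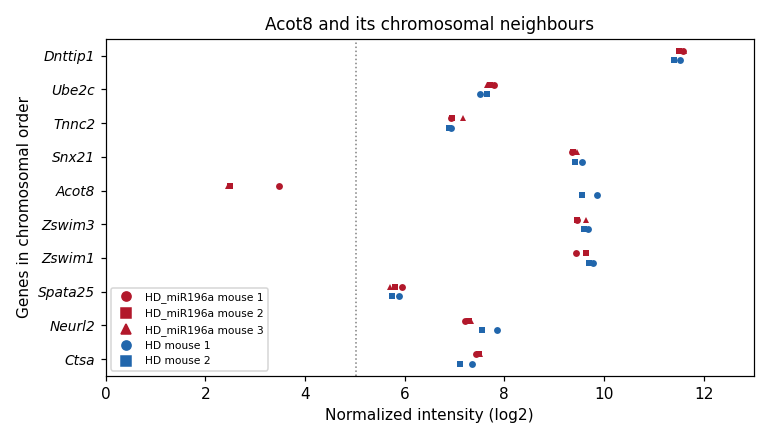
Normalized log2 intensity (x axis) of Acot8 and the 9 measured genes around it in chromosomal order (y axis), with 1 point per mouse, HD_miR196a mice above HD mice in each row, and the olfactory receptor median as a dotted line. The HD_miR196a points of Acot8 lie at 2.46 to 3.49, left of that line, while the 5 points of each neighbour span at most 0.63.

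The rest of the peroxisome did not follow Acot8. Of the 33 other genes measured, taken at the brightest probe of each gene, 20 were lower and 13 higher in HD_miR196a mice, and 32 of them differed by -0.25 to 0.27 on the log2 scale. Without scaling between mice 28 were lower and 5 higher, but the median of all genes then lay at -0.21, and 19 were below it and 14 above. The exception to the narrow range was Crot, which turned on 1 HD mouse and is described below. The median difference was -0.045, against -0.0041 over the brightest probe of all 17710 genes, and the median size of a difference was 0.12, against 0.11 over all genes. None passed a Benjamini-Hochberg adjusted p under 0.05 in limma over all probes, where the background was also 0% of 26423 probes, and the smallest adjusted p was 0.979. At an unadjusted p under 0.05 the count was 0 of 33, with a background of 3.73% of genes, and the smallest p was 0.0777, for Pecr.

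The intervals set limits on the size of any change in a probe's reading. A reading within background need not follow the transcript. This applies to the 12 genes, other than Acot8 and Crot, with means under the 95th percentile of olfactory receptor probes. For 27 of the 33 the 95% interval of the difference lay within 1.5-fold in either direction, and for 30 within 2-fold. The 3 with wider intervals were Crot, Abcd2 and Acox2. A p that misses the threshold does not show that a gene was equal in both groups.

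**Figure D2:**
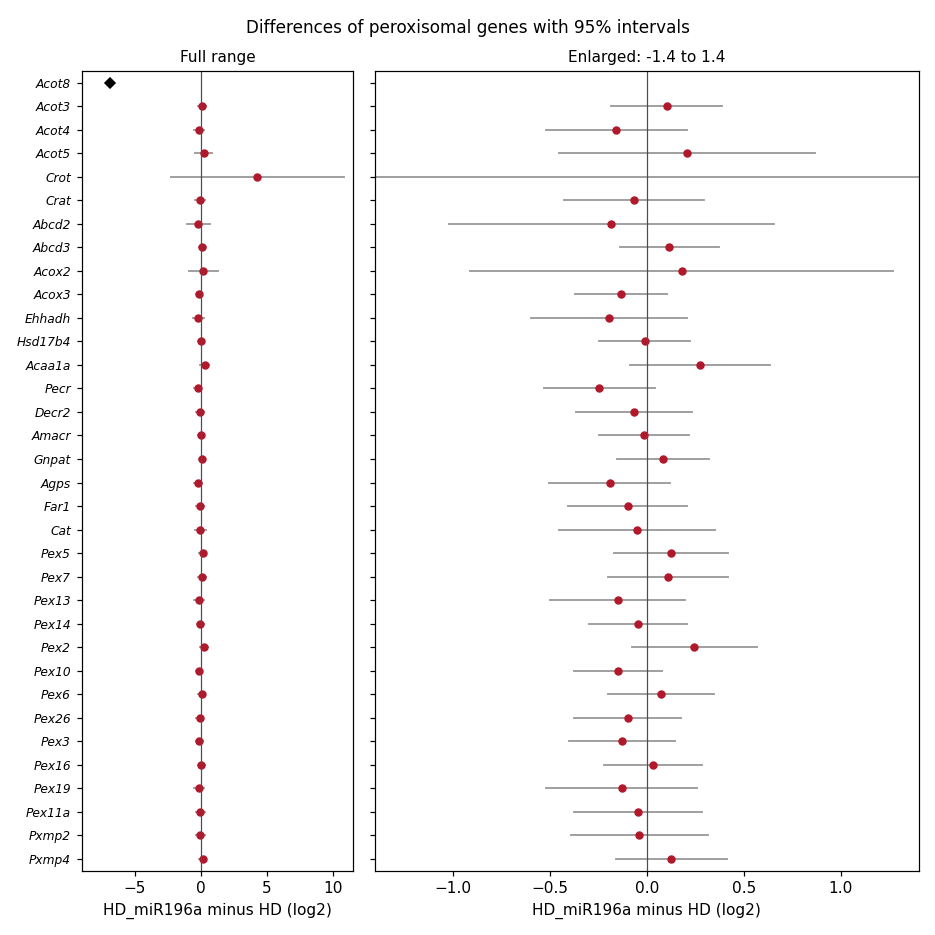
Difference HD_miR196a minus HD (x axis, log2) of the 34 measured peroxisomal genes (y axis), over the full range on the left and enlarged on the right, with 95% limma intervals as lines (n = 3 and 2). Acot8, the diamond, is drawn without an interval because it was chosen by this difference. Points other than Acot8 and Crot lie between -0.25 and 0.27.

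Mouse by mouse, few genes had the order of Acot8, in which the 3 HD_miR196a values all lie under the 2 HD values. It held for 3 of the 33, Acox3, Pecr and Pex10, which is 9.09%, with a background of 10.7% of genes. The opposite order held for 5, Abcd3, Acaa1a, Gnpat, Pex2 and Pxmp4, or 15.2%, with a background of 10%. The remaining 25 overlapped. With all 5 mice these shares are near the background, and both counts move when a mouse is left out, as the background does. Lower counts were 5 to 12 of 33, with backgrounds of 14.6% to 26.7%. The count of 12 came without HD mouse 2, a larger share than its background of 26.7%. Higher counts were 5 to 13 of 33, with backgrounds of 14.3% to 27.6%. The count of 13 came without HD mouse 1, a larger share than its background of 27.6%. Without HD_miR196a mouse 3 both shares were under the background, at 6 lower and 5 higher of 33 (backgrounds 18.9% and 18.8%).

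**Figure D3:**
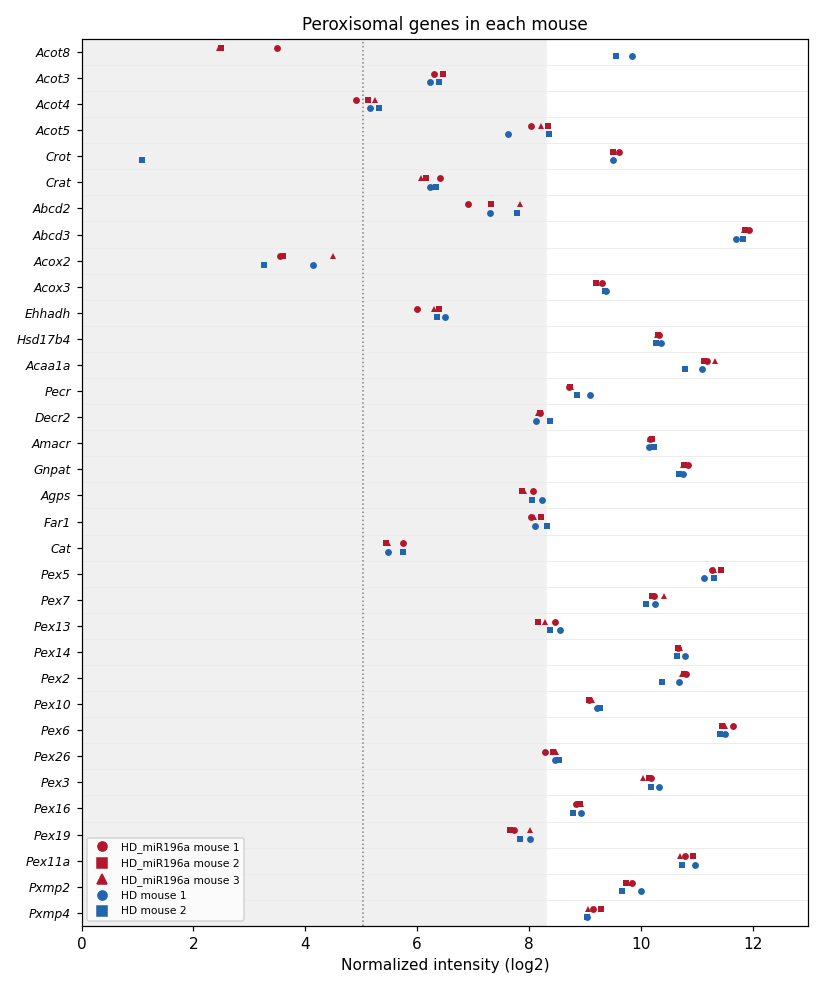
Normalized log2 intensity (x axis) of the 34 measured peroxisomal genes (y axis, brightest probe of each gene), with 1 point per mouse and HD_miR196a mice above HD mice in each row. The shaded range ends at the 95th percentile of olfactory receptor probes (8.31) and the dotted line is their median (5.02). Acot8 is low in all HD_miR196a mice, Crot in HD mouse 2 alone, and the other genes lie within 1.23 over the 5 mice.

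Among the thioesterases, Acot3, Acot4 and Acot5 are peroxisomal enzymes of mouse from a family unrelated in fold to Acot8, encoded by a cluster of similar genes. Acot3 measured 6.31, 6.46 and 6.46 in HD_miR196a mice, against 6.23 and 6.39 in HD mice. Acot4 measured 4.90, 5.12 and 5.24 against 5.17 and 5.32. Acot5 measured 8.03, 8.34 and 8.21 against 7.62 and 8.36. All 3 overlapped between the groups, with differences of 0.10 ± 0.11, -0.16 ± 0.14 and 0.21 ± 0.25 (SE), and their means over the 5 mice were under 8.31, where 95% of olfactory receptor probes lie. Whether their probes tell these similar genes apart was not tested.

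Of the acyl-CoA thioesterases outside these 36 genes, 7 of 9 were measured, 2 higher and 5 lower, with a median of -0.06 and 0 called. Acot1, the cytosolic member of that cluster, measured 9.21, 9.38 and 9.36 in HD_miR196a mice, against 9.57 and 9.60 in HD mice. Its groups did not overlap, and the difference was -0.27 ± 0.10 (SE, limma adjusted p = 0.979). Acot12, at levels below the olfactory receptor median, differed by -0.29 ± 0.10 and Acot6 by 0.19 ± 0.10. Acot7, the main thioesterase of neurons, gave 0.03 ± 0.10 for the brighter of 2 probes and 0.44 ± 0.14 for the dimmer (limma adjusted p = 0.995 and 0.979). Its groups overlapped on the brighter probe. On the dimmer, whose mean of 9.66 lay above 8.31, every HD_miR196a mouse was higher than both HD mice.

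The carnitine acyltransferases pass shortened acyl groups to carnitine for export. Crot, the octanoyltransferase, measured 9.61, 9.50 and 9.51 in HD_miR196a mice, against 9.50 and 1.07 in HD mice. HD mouse 2 stood alone, and the other 4 mice lay between 9.50 and 9.61. Its deposited intensity in HD mouse 2 was 2.47, against 797.6 in HD mouse 1. The group difference of 4.25 ± 2.50 (SE) had a 95% interval from -2.28 to 10.78 and an adjusted p of 0.979 in limma. Without HD mouse 2 the difference was 0.04. Without HD mouse 1, which leaves the dim mouse as the only HD mouse and assumes that it varies like the other group, Crot was called (limma adjusted p = 0.0113). The reading of HD mouse 2 lies below the olfactory receptor median, so a difference against it has only a bound. With that median in its place the other 4 mice read 22.7-fold higher, and a higher background value would give a smaller bound. The group difference was 2.79 with a floor of 16 and 2.28 with the olfactory receptor median as floor. Over all probes, 19 read more than 4 below every other mouse in 1 mouse, and 11 of these did so in HD mouse 2, against 2 in each of the other mice. The part of that mouse's array in the Crot reading was not tested. Crat, the acetyltransferase, which also works in mitochondria, differed by -0.06 ± 0.14, with every mouse under 8.31.

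The transporters ABCD2 and ABCD3 bring fatty acyl-CoA into the organelle. Abcd3 measured 11.94, 11.87 and 11.84 in HD_miR196a mice, against 11.70 and 11.84 in HD mice. The groups were apart only at the third decimal, and the difference of 0.12 ± 0.10 (SE) was no larger than the spread between the HD mice. Abcd2 spread more, at 6.92, 7.32 and 7.84 in HD_miR196a mice, against 7.30 and 7.79 in HD mice. Within each group its lowest value was in mouse 1. Those 2 mice also had the lowest means of 11 measured cortical neuron markers, 8.22 in HD_miR196a mouse 1 and 8.67 in HD mouse 1, with 9.89 to 10.39 in the other 3. Mouse 1 of each group also had that group's highest mean of 11 measured oligodendrocyte markers. These means were 12.48 against 12.13 and 11.89 in HD_miR196a mice, and 12.11 against 11.67 in HD mice. The part of these cell types in the Abcd2 values was not tested.

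Beta-oxidation genes gave 5 lower and 2 higher of 7 measured, with a median of -0.07. Pecr, the trans-2-enoyl-CoA reductase, had the smallest p of all genes here other than Acot8. It measured 8.71, 8.73 and 8.75 in HD_miR196a mice, against 9.09 and 8.86 in HD mice, so the groups did not overlap. The difference was -0.25 ± 0.11 (SE), with a 95% interval from -0.53 to 0.04. Acox3, an oxidase of branched acyl-CoA, measured 9.30, 9.20 and 9.21 against 9.37 and 9.37, a difference of -0.13 ± 0.09. Its groups were apart as well, by less than the range among HD_miR196a mice.

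Acaa1a, a thiolase of the last step, was higher in HD_miR196a mice without passing the test. It measured 11.18, 11.13 and 11.34 in HD_miR196a mice, against 11.10 and 10.79 in HD mice, a difference of 0.27 ± 0.14 (SE). The lowest HD_miR196a mouse and the highest HD mouse were 0.04 apart, while the HD mice differed by 0.31. Hsd17b4, the D-bifunctional protein, was steady at 10.33, 10.32 and 10.29 against 10.37 and 10.28, a difference of -0.01 ± 0.09. Ehhadh, the L-bifunctional protein and a classic target of PPAR alpha in rodent liver, measured 6.004, 6.39 and 6.30 against 6.50 and 6.35. Its groups overlapped and its level lay in the range of olfactory receptor probes. Decr2, a dienoyl-CoA reductase, differed by -0.07 ± 0.12, and Acox2, an oxidase of branched acyl-CoA read near background, by 0.18 ± 0.42. Amacr, the racemase that prepares branched acyl-CoA, was read by 2 probes that differed by -0.01 ± 0.09 and -0.04 ± 0.10.

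Of the ether lipid enzymes, Gnpat, which makes the first acyl bond, measured 10.85, 10.78 and 10.75 in HD_miR196a mice, against 10.75 and 10.68 in HD mice. The groups were apart by less than 0.01, and the difference was 0.08 ± 0.09 (SE). Agps, the next enzyme, measured 8.08, 7.88 and 7.91 against 8.24 and 8.05, overlapping, with a difference of -0.19 ± 0.12. Far1, which supplies the fatty alcohol, differed by -0.10 ± 0.12. Beside these, 11 of 11 measured myelin and oligodendrocyte markers were higher in HD_miR196a mice, with a median of 0.28 and none called, and their part in the ether lipid values was not tested. In bulk tissue, more cells of a type and more RNA per cell cannot be told apart.

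Catalase, Cat, measured 5.75, 5.45 and 5.47 in HD_miR196a mice, against 5.47 and 5.74 in HD mice. The groups overlapped in full, with a difference of -0.05 ± 0.15 (SE) at a level within the range of olfactory receptor probes.

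The 12 peroxins gave 7 lower and 5 higher, with differences from -0.15 to 0.25 and a median of -0.05. Pex5, the main import receptor, measured 11.27, 11.44 and 11.31 in HD_miR196a mice, against 11.13 and 11.31 in HD mice. Pex7, the second receptor, measured 10.23, 10.20 and 10.42 against 10.25 and 10.10. Pex14, a docking protein, measured 10.66, 10.66 and 10.69 against 10.80 and 10.64. All 3 overlapped, with differences of 0.12 ± 0.11, 0.11 ± 0.12 and -0.05 ± 0.10 (SE), and Pex13, the other docking protein, differed by -0.15 ± 0.13.

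In the export machinery, the ubiquitin ligases Pex2 and Pex10 had differences of opposite sign, neither past the threshold. Pex2 measured 10.80, 10.78 and 10.74 in HD_miR196a mice, against 10.68 and 10.38 in HD mice, a difference of 0.25 ± 0.12 (SE). Pex10 measured 9.08, 9.08 and 9.12 against 9.21 and 9.27, a difference of -0.15 ± 0.09. Both were apart between the groups, and for Pex2 the HD mice differed from each other by 0.30. The ATPase Pex6 and its membrane anchor Pex26 differed by 0.07 ± 0.10 and -0.10 ± 0.11.

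Among peroxins that place membrane proteins, Pex19, the chaperone, measured 7.73, 7.66 and 8.01 in HD_miR196a mice, against 8.02 and 7.84 in HD mice, with a difference of -0.13 ± 0.15 (SE). Its docking partner Pex3 was read by 3 probes, which gave -0.13 ± 0.10, -0.14 ± 0.09 and, at a mean below the olfactory receptor median, -0.13 ± 0.15. Groups were apart on the second of these and overlapped on the others. Pex16 gave 0.03 ± 0.10 and -0.03 ± 0.15 on 2 probes, the second with a mean in the range of olfactory receptor probes. Pex11a, which acts in division, differed by -0.05 ± 0.13. The membrane proteins Pxmp2, a pore, and Pxmp4 differed by -0.04 ± 0.14 and 0.13 ± 0.11. Pxmp4 measured 9.14, 9.29 and 9.06 against 9.03 and 9.04, apart between the groups by 0.02.

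No call was made among other genes of the organelle or of mitochondrial oxidation. Of 47 measured genes outside the 36 that were listed as peroxisomal, 21 were higher and 26 lower, with a median of -0.01. By limma 0 of the 47 were called at an adjusted p under 0.05, and 19 had means under the 95th percentile of olfactory receptor probes. This list shares Acot6 and Acot12 with the thioesterases above, and its assignments were not checked here. The smallest p in the list were those of Acot12, the division GTPase Dnm1l (-0.22 ± 0.09, SE) and the xanthine dehydrogenase Xdh (-0.34 ± 0.15). Acot12 and Xdh were among the 19 dim genes. Dnm1l measured 11.48, 11.46 and 11.58 in HD_miR196a mice, against 11.75 and 11.69 in HD mice, and its groups did not overlap. Of 17 mitochondrial fatty acid oxidation genes, 3 were higher and 14 lower, with a median of -0.04 and 0 called. The acyl-CoA dehydrogenases Acadm and Acadl differed by -0.19 ± 0.09 and -0.17 ± 0.12, and the neuronal carnitine palmitoyltransferase Cpt1c by 0.22 ± 0.10. Without HD mouse 1 the median of that list relative to all genes was 0.10, and without HD mouse 2 it was -0.16.

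The PPAR receptors and their RXR partners drive many of these genes in rodent liver. Of 10 such receptors and cofactors, 6 were higher and 4 lower, with a median of 0.02 and 0 called. Ppara, the PPAR alpha gene, measured 6.61, 6.47 and 6.23 in HD_miR196a mice, against 6.73 and 6.75 in HD mice, a difference of -0.30 ± 0.14 (SE). A second, dimmer probe of it differed by 0.22 ± 0.12, in the opposite direction. Ppard differed by -0.41 ± 0.16, also in the range of olfactory receptor probes, and Rxrg by 0.38 ± 0.24.

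**Figure D4:**
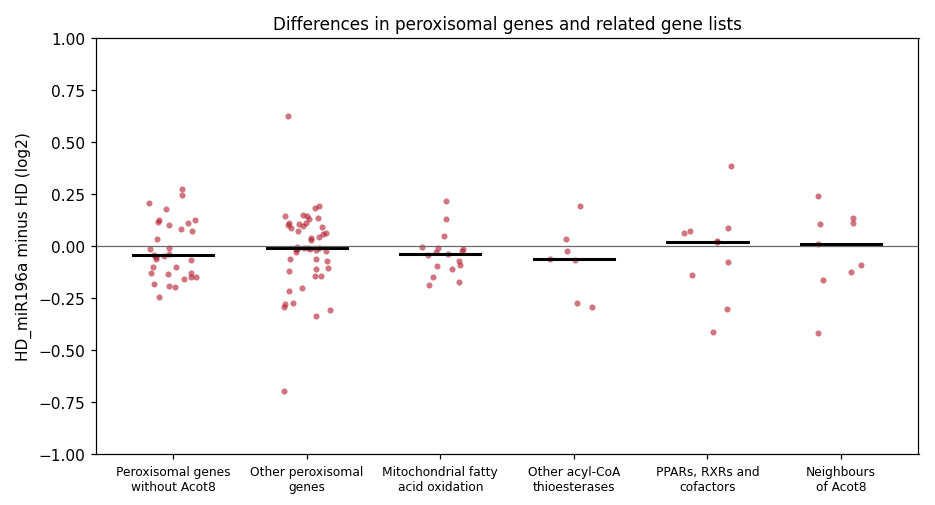
Difference HD_miR196a minus HD (y axis, log2) for each gene, at its brightest probe, of the peroxisomal genes without Acot8 and of 5 related lists (x axis), with each list's median as a bar. Crot, at 4.25, lies above the plotted range, and the medians lie between -0.06 and 0.02.

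Array-wide, deposited medians were 160.0 to 166.3 in HD_miR196a mice and 184.3 to 185.6 in HD mice, a gap that quantile normalization removes. Of the 34 measured genes, 20 had means above the 95th percentile of olfactory receptor probes (8.31 on the log2 scale) and 14 below. Medium spiny neuron markers, which define striatum, were present for 9 of 10 measured, with a median difference of 0.35 and none called. The dopamine receptor Drd2 read near the floor in every mouse. Of the 10, 9 were higher in HD_miR196a mice and 6 had an unadjusted p under 0.05 in limma (background 3.73% of genes). Groups were apart and higher for 6 of the 10 (background 10%). The part of these neurons in the peroxisomal values was not tested. With 5 arrays the precision is limited, and for 3 mice against 2 the smallest p that an exact permutation test allows is 0.1.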

How the data were processed

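The data are linear intensities, 1 per probe and mouse, deposited by the authors as a value table. Per the labels' protocols, Cy5 was attached to amplified RNA, and per the titles the authors combined 2 technical repeats of each mouse. Values below 0 show that background had been subtracted, and scanner, software and scaling are not stated in the labels used here. The intensities were quantile normalized, raised to a floor of 1, put on the log2 scale and fitted over all 26423 probes in R 4.3.3 by limma's moderated linear model (limma 3.58.1, with 3 residual degrees of freedom and 1.74 from the prior). Differences are HD_miR196a minus HD, tests are two-sided with Benjamini-Hochberg adjustment, and the threshold is 0.05. The fit was tested on simulated data.

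Groups and mouse numbers come from titles and genotype labels. Probe symbols came from the platform table, of which 18213 matched RefSeq symbols (GRCm38.p6), 2126 a synonym and 38 several genes, while 6046 probes had none. Pex2 was matched through its older symbol. The members, lists and named genes were chosen with earlier results of these data known. Named with values per mouse were Acot8, the 6 other members with the smallest p, members whose groups did not overlap or whose range exceeded 4, and a fixed set. Of each other list the 3 genes with the smallest p were named, some with values per mouse and the rest by their difference. Alternatives were other scalings, floors, filters on dim probes, eBayes settings, array weights, the mouse number as a block, leaving out each mouse, and averaging the probes of a gene. Equal mouse numbers are not stated to pair the mice.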

Additional observations from a re-analysis of the deposited data

How the results depend on the processing

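The count of 0 called among the 33 genes other than Acot8 held under 14 of 15 alternatives and became 1 (Crot) without HD mouse 1 (0 to 1 with a mouse left out). Calls were not rerun for the mean over a gene's probes. Over all probes 0 became 5 with a floor of 16, 4 with the olfactory receptor median as floor, 1 among the brightest 75% and 3 with eBayes trend and robust settings, and 0 to 3 with a mouse left out. Acot8 itself differed by -4.68 to -7.26 over all alternatives that kept it. Without adjustment, 1100 probes had p under 0.05, and this was 3641 without scaling, 1675 with a floor of 16, 528 among the brightest 50%, where fewer were tested, and 2025 with the replicate block. Genes whose groups did not overlap became 20 lower and 0 higher of 33 without scaling (backgrounds 41.7% and 1.44%, with the median of all genes at -0.21). They became 1 higher of 33 with median centring (background 8.04%). As shares of 33, the 20 lower lay above the background, and the 0 and 1 higher lay below theirs. Without mouse 1 of each group, chosen after seeing the data, they were 14 and 14 of 33. Both shares exceeded the backgrounds (32.7% and 34.6%). With 1 mouse left out they were 5 to 12 lower and 5 to 13 higher of 33 (14.6% to 26.7% and 14.3% to 27.6%). Unscaled, 28 of 33 genes were lower and 5 higher, 19 and 14 relative to all genes.

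Relative to all genes, the median of the 33 genes was -0.04. It was -0.0321 among the brightest 50%, -0.0094 with the replicate block and 0.0023 without mouse 1 of each group. With 1 mouse left out it was -0.0369 to 0.0083, and among these only leaving out HD mouse 2 turned its sign. The neighbours of Acot8 had 0.0679 with median centring, 0.0676 without scaling and -0.1013 among the brightest 50%. Without mouse 1 of each group the other peroxisomal genes had 0.0548, the other thioesterases -0.0076 and the PPAR list -0.0989. With 1 mouse left out the ranges were -0.0294 to 0.0411 for other peroxisomal genes, -0.1573 to 0.0959 for mitochondrial oxidation, -0.0623 to 0.0247 for thioesterases, -0.1353 to 0.0828 for the PPAR list and -0.053 to 0.0528 for the neighbours. Deviations from group means correlated across probes by 0.236 for mice numbered 1 and 0.17 for those numbered 2. With only 2 HD mice their deviations mirror each other, so these correlations are not independent. The block changed no call among the 33. Of 487 values of single genes other than Acot8, 448 kept direction and call, 38 changed sign uncalled, and 1 (Crot) gained a call. The cause of these shifts was not tested. Low signal limits the 12 genes other than Acot8 and Crot whose means lie in the olfactory receptor range.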
